A study of Rattus norvegicus with 24 samples.

Results

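In rat neurospheres, 80 genes were set apart by Noggin, 40 that were higher with Noggin and 40 that were lower, out of 16478 genes listed. They were selected from these same measurements. Group means of log2(TPM + 1) were taken over 23 samples, where TPM is the transcript abundance scaled for transcript length and library size. Ranking was limited to the 7860 genes whose mean reached 5 TPM in 1 or more groups. The margin of a gene was the gap between the Noggin groups and the nearest group without Noggin. For the higher list it was the lower of the 2 Noggin means less the highest of the 4 other means, and for the lower list it was the lowest of the 4 other means less the higher of the 2 Noggin means. The 40 largest margins in each direction made up the lists. The difference between the groups with and without Noggin therefore chose the members and was given no test.

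The neurospheres were spheroids grown in suspension from neural progenitor cells of fetal Sprague Dawley rat brain, in medium with epidermal and fibroblast growth factor, and poly(A) RNA was sequenced in bulk. There were 24 samples in 6 groups of 4. C received no agent and 0 Gy, N received 5 µM recombinant Noggin and 0 Gy, and A received 200 µM ascorbic acid and 0 Gy. CGy, NGy and AGy received the same agents and 1 Gy of photon radiation from a benchtop X-ray irradiator. Agents were given before and again after the time of irradiation. One control sample, MO2, was removed by the authors and did not enter the rule, which left 3 controls.

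Noggin is a secreted protein that binds bone morphogenetic proteins (BMPs) outside the cell and keeps them from their receptors. BMPs signal through receptor kinases to SMAD transcription factors, with the Id genes among the best known targets. In neural progenitors BMP signalling is known for favouring the astrocyte fate, and Noggin is used in culture to block it.

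The tables identify genes by Ensembl rat identifiers that were not paired with symbols here, so the members are given by identifier or by their rank in margin. The BMP pathway genes, the Id genes and the markers of progenitors, astrocytes, neurons and oligodendrocytes were not analysed here by name, and neither the labelled cell type nor the delivery of Noggin was checked against its marker genes. Some of these genes may be among the members. In bulk RNA, fewer cells of a type and less RNA per cell cannot be told apart. No label says that samples of a group came from separate cultures, so the p-values measure the spread between these samples, which may be technical.

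The gaps were wider among the genes higher with Noggin. Their margins ran from 0.35 to 1.94 on the log2(TPM + 1) scale with a median of 0.50, and 4 genes reached 1. Margins of the genes lower with Noggin ran from 0.23 to 1.31 with a median of 0.31, and 1 gene reached 1. Neither list ended at a step. The last gene inside the higher list had a margin of 0.353 and the first gene outside it 0.351, and the corresponding values for the lower list were 0.232 and 0.230. In all, 682 of the 7860 ranked genes had a margin above 0 in the higher direction and 656 in the lower direction.

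**Figure D1:**
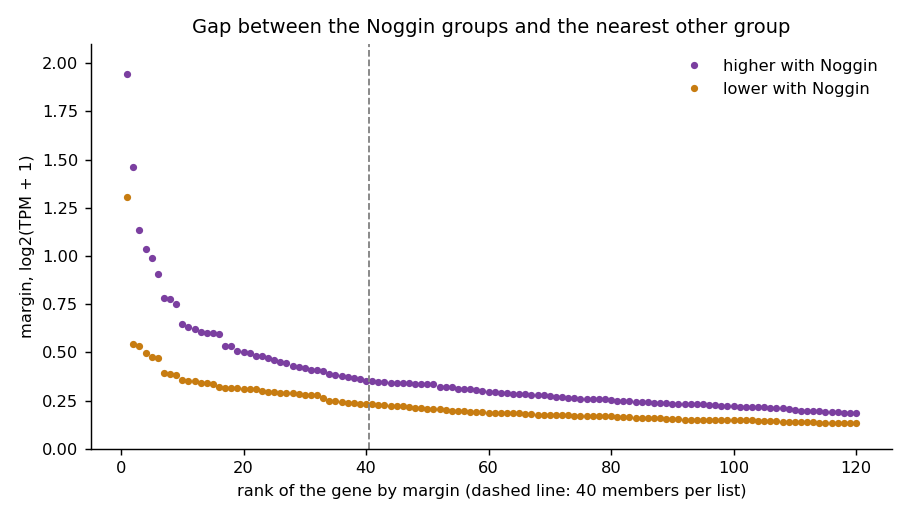
The margin of a gene, on the log2(TPM + 1) scale, plotted against its rank in each direction for the first 120 genes. The first few genes stood apart, and both curves passed the dashed line at 40 members without a break.

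The gene with the widest margin was ENSRNOG00000002382. Its level was 10.7, 12.7 and 14.7 TPM in C, and 45.5 to 59.3 TPM in N with a mean of 52.4 ± 5.88 (SD, n = 4). In the irradiated groups it was 11.9 ± 2.52 TPM in CGy and 57.9 ± 9.39 TPM in NGy (SD, n = 4 each). Ascorbic acid groups were at the control level, with 13.0 ± 2.06 TPM in A and 12.6 ± 2.27 TPM in AGy. Every Noggin sample lay above every other sample, and the 4 groups without Noggin overlapped one another.

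ENSRNOG00000036673 came second among the higher genes, at a lower level. It was at 8.07 to 15.7 TPM in N and 10.2 to 14.4 TPM in NGy. The controls were at 0.344, 1.61 and 5.69 TPM, and the means were 1.37 ± 0.488 TPM in A, 3.79 ± 0.603 TPM in CGy and 2.15 ± 0.774 TPM in AGy (SD, n = 4 each). Noggin samples again lay above all others, but the controls alone spanned the range of the other groups without Noggin.

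Among the genes lower with Noggin, ENSRNOG00000026124 had the widest margin. It was at 20.4, 26.5 and 32.8 TPM in C and at 5.28 to 9.15 TPM in N. In CGy it was at 27.9 to 55.8 TPM, where 2 samples were near the controls and 2 were above 50 TPM, and in NGy it was at 7.32 to 9.20 TPM. The means were 21.4 ± 4.67 TPM in A and 27.7 ± 3.51 TPM in AGy (SD, n = 4 each). All 8 Noggin samples lay below all 15 others.

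The next gene in that list, ENSRNOG00000016640, was near the low end of the measurement. Its values were 1.83, 1.85 and 6.69 TPM in C, and 0.000248, 4.92, 0 and 1.67 TPM in N. In NGy they were 1.66, 0, 3.64 and 3.42 TPM. The other groups were at 4.64 to 11.8 TPM in A, 2.18 to 6.29 TPM in CGy and 1.73 to 7.75 TPM in AGy. Samples with and without Noggin overlapped, so the margin of 0.54 was a gap between means and not between samples. It was 0.06 without MO4 or without MO18.

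**Figure D2:**
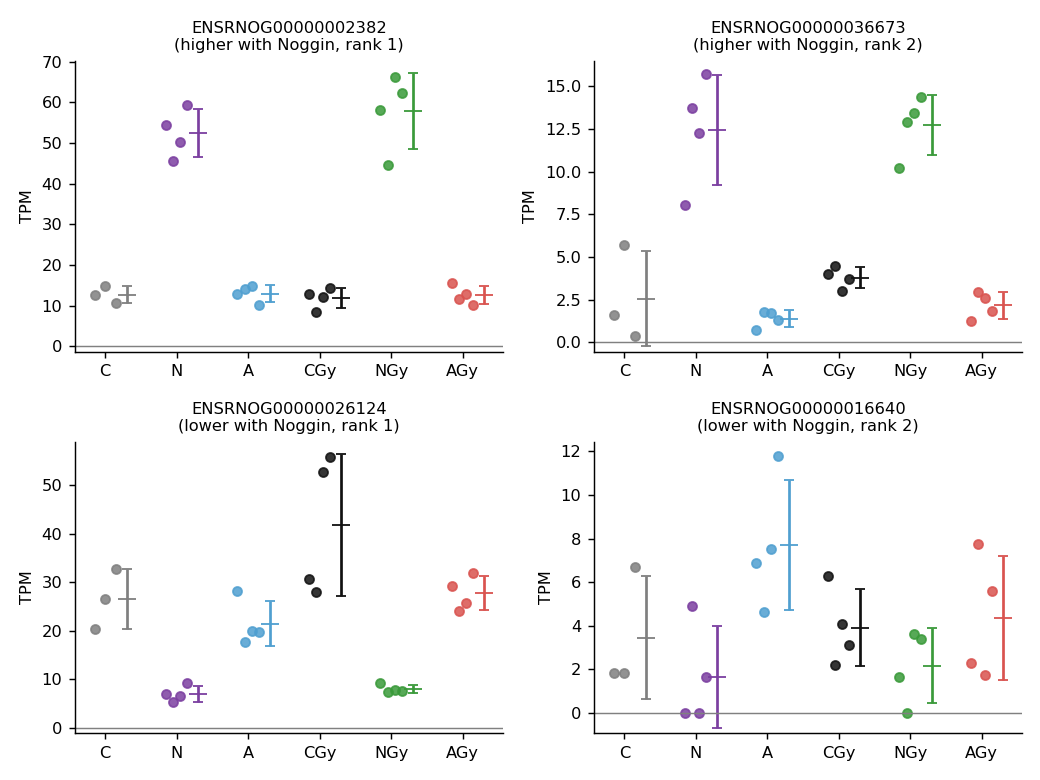
Level in TPM of the 2 genes with the widest margin in each direction, by group, in the 23 samples of the rule. Points are samples and bars are the mean ± SD. Samples with and without Noggin do not overlap in 3 of the panels and overlap for ENSRNOG00000016640.

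Separation by sample, as opposed to separation of means, was seen in a minority of members in the uncorrected values. All 8 Noggin samples lay above all 15 others in 12 of the 40 higher genes, where 0.305% of the ranked genes (24 of 7860) did so. All 8 lay below all others in 6 of the 40 lower genes, where 0.178% of the ranked genes (14 of 7860) did so. The rule used this contrast, so these shares only describe the members. In the others the margin was carried by group means whose samples overlapped. In the deposited table after batch correction, which used the groups, 28 higher and 11 lower genes had no overlap. The share of all genes without overlap was not counted there, so nothing about the members is read from these counts.

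Levels of the members ranged widely. The highest group mean of a higher gene was 5.02 to 528 TPM with a median of 15.2 TPM, and that of a lower gene was 5.14 to 698 TPM with a median of 20.5 TPM. Over all ranked genes the median was 26.3 TPM. Low levels made some values uncertain, since 8 of the 40 higher genes and 12 of the 40 lower genes had no group mean of 10 TPM or more. The higher gene with the largest level, of rank 7, was at 431 to 588 TPM in N and 377 to 483 TPM in NGy. Without Noggin it was at 92.4 to 277 TPM in C, 173 to 338 TPM in CGy, 90.1 to 167 TPM in A and 72.3 to 217 TPM in AGy. Its Noggin samples were all above the others, while its levels without Noggin varied within every group.

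Members were also more variable within groups than the median gene. The median within-group SD of the higher genes was 0.47 in C, 0.26 in N, 0.27 in A, 0.31 in CGy, 0.24 in NGy and 0.33 in AGy on the log2(TPM + 1) scale. For the lower genes it was between 0.19 and 0.28 in every group, and for all ranked genes between 0.11 and 0.18. The widest spread was thus that of the higher genes in the controls.

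The Noggin difference is given with and without radiation as a description, in log2(TPM + 1). The N mean exceeded the C mean of the higher genes by 0.36 to 2.20 with a median of 0.96, and the NGy mean exceeded the CGy mean by 0.37 to 2.20 with a median of 0.64. For the lower genes, N less C was -1.79 to -0.24 with a median of -0.51, and NGy less CGy was -2.20 to -0.23 with a median of -0.43. On this scale the added 1 makes the change of a low gene look smaller than it is in TPM. The group without Noggin that came nearest was CGy for 26 of the 40 higher genes and C for 9, and CGy for 20 of the 40 lower genes and C for 14. Ascorbic acid groups were nearest for the remaining 5 higher and 6 lower genes.

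**Figure D3:**
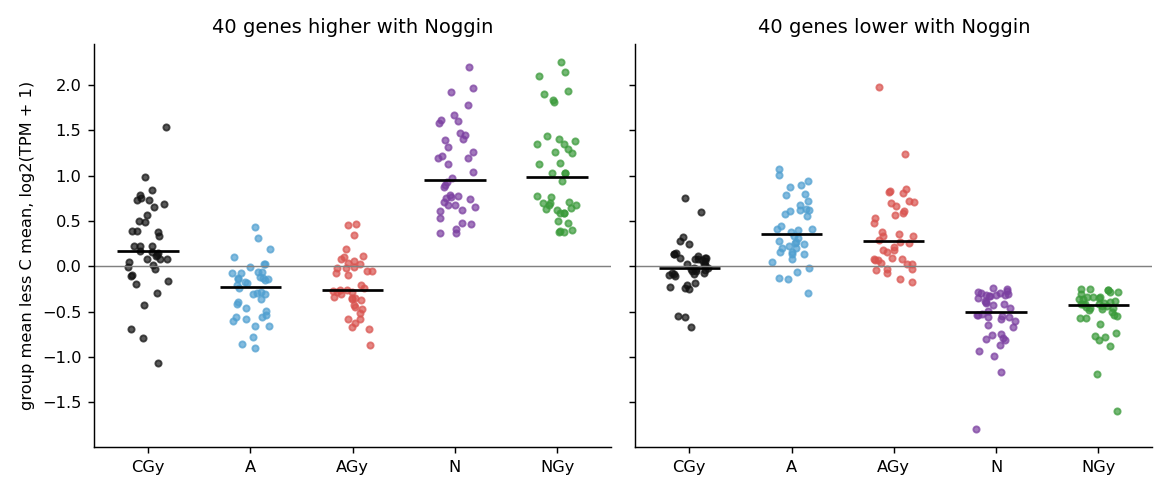
Difference of each group mean from the C mean on the log2(TPM + 1) scale, with 1 point per member and a bar at the median. N and NGy lie apart because the rule chose them so. A and AGy lie mostly on the other side of C in both lists, which is not independent of the rule. CGy lies about 0 with the widest scatter among the higher genes.

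The mean of the 40 genes in each sample, set against the mean over the controls, showed how even the groups were. The gap between the Noggin groups and the others in this level follows from the rule and is no separate result. For the higher genes this level was 1.06 ± 0.16 in N and 1.06 ± 0.02 in NGy (SD, n = 4 each), -0.27 ± 0.12 in A, -0.20 ± 0.20 in AGy and 0.21 ± 0.27 in CGy. For the lower genes it was -0.56 ± 0.20 in N, -0.50 ± 0.05 in NGy, 0.40 ± 0.15 in A, 0.38 ± 0.15 in AGy and -0.01 ± 0.11 in CGy. The NGy samples were close together in both lists. Controls were spread, with levels of 0.12, 0.41 and -0.53 for the higher genes in MO1, MO3 and MO4 and of -0.02, -0.17 and 0.19 for the lower genes. MO4 was the lowest of the 3 controls in 34 of the 40 higher genes, as it was in 55.1% of all ranked genes, and the highest in 22 of the 40 lower genes, as it was in 29.4% of all ranked genes.

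**Figure D4:**
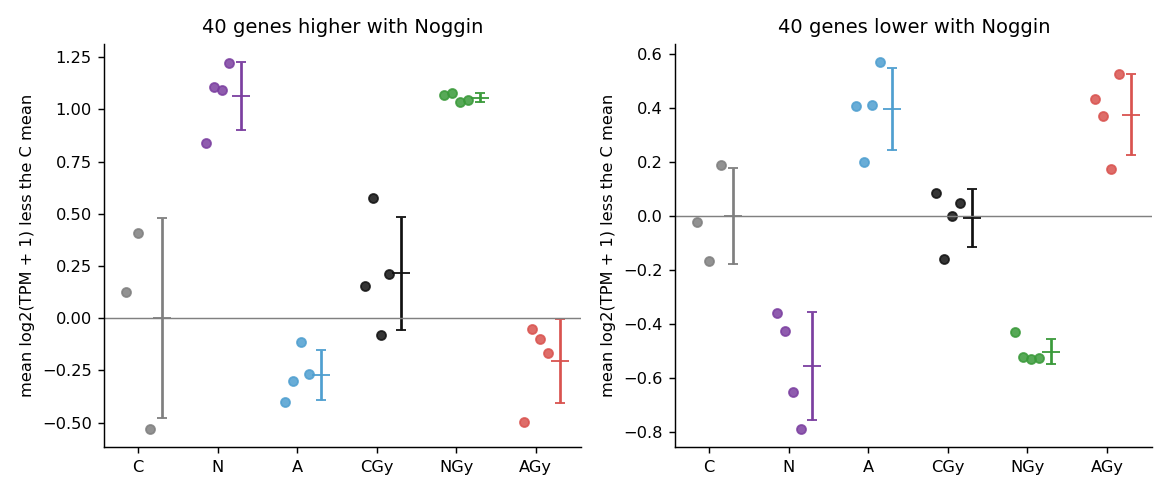
Mean log2(TPM + 1) of the 40 genes of each list in each of 23 samples, less the mean over the 3 C samples. Points are samples and bars are the group mean ± SD. The N and NGy points are separate from all others in both lists, where the rule chose the genes by these group means. The C points run from -0.53 to 0.41 in the higher list.

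The control sample that the rule did not use, MO2, was compared with the lists separately. It lay below all 8 Noggin samples in 35 of the 40 higher genes, where 69.6% of all ranked genes did so. It lay above all 8 in 5 of the 40 lower genes, against 12.8% of all ranked genes, so the lower list was not separated in this sample. MO2 had low values in general, with a median gene at 1.32 TPM against 2.57 to 3.20 TPM in the other samples. Its list levels were -0.62 for the higher genes and -1.43 for the lower genes, so both lists were below the other controls.

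Groups on the same side of the rule were compared with a test. These comparisons were not independent of the rule, which used the same group means and took the least extreme group on each side. A group on the same side but further out did not lower the margin. In A against C the median size of the difference was 0.29 in the higher and 0.36 in the lower list, against 0.14 over all genes. In NGy against N it was 0.17 and 0.11, against 0.16. Counts of members called are therefore given beside the share of all genes, and nothing about the lists is read from them. Each was fitted with limma across all genes whose mean reached 1 TPM in 1 or more of the groups compared, and a gene was called at a Benjamini-Hochberg adjusted p of at most 0.05 and a change of at least 1.5-fold. A against C and CGy against C share the controls.

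Under Noggin, members were called after radiation at a share near that of all genes. In NGy against N, 2 of the 40 higher genes were called, both higher in NGy, and none of the 40 lower genes, where 2.91% of all genes tested (284 of 9765) were called, 91 higher and 193 lower. At an unadjusted p below 0.05, 10 higher and 3 lower genes passed, against 33.2% of all genes. In the deposited table after batch correction, 2 higher genes and 0 lower genes were called, where 4.72% of all genes (460 of 9756) were. The median difference was 0.01 in both lists and -0.01 over all genes. The lowest adjusted p among the lower genes was 0.0605.

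The 2 genes called had the ranks 4 and 9 in the higher list. The gene of rank 4 was at 4.12, 5.22, 6.13 and 5.20 TPM in N and at 7.38, 7.48, 10.6 and 12.1 TPM in NGy, with a log2 difference of 0.73 (SE 0.17, adjusted p = 0.0289 by limma). It was at 0.91 to 2.36 TPM in the 15 samples without Noggin. The gene of rank 9 was at 3.10, 5.21, 4.88 and 5.61 TPM in N and at 6.50, 7.78, 13.3 and 12.6 TPM in NGy, with a log2 difference of 0.92 (SE 0.24, adjusted p = 0.0411 by limma). It was at 0.94 to 2.90 TPM without Noggin. For both, all 4 NGy samples lay above all 4 N samples. Both calls were lost without any 1 of MO5, MO6, MO8, MO19 or MO20, and 1 of them without MO7 or MO18. All genes gave 149 to 236 calls in the former fits, and 222 and 328 without MO7 and MO18, against 284 with every sample. In CGy against C the 2 genes were not called.

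ENSRNOG00000002382 did not pass in NGy against N, with a difference of 0.13 and a 95% interval of -0.17 to 0.44 (adjusted p = 0.517 by limma), which leaves out a change of 1.5-fold. ENSRNOG00000026124 differed by 0.19 with an interval of -0.14 to 0.52 (adjusted p = 0.385 by limma). ENSRNOG00000036673 differed by 0.06 (adjusted p = 0.864 by limma).

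Radiation without Noggin gave no call among the members. In CGy against C, 0 of 40 higher and 0 of 40 lower genes were called by limma, where 0.0204% of all genes tested (2 of 9782) were. At an unadjusted p below 0.05, 3 higher genes and 0 lower genes passed, against 14.6% of all genes. In the batch-corrected table, made with knowledge of the groups, 7 higher and 2 lower genes were called, where 6.73% of all genes (657 of 9763) were. The CGy mean was above the C mean in 29 of the 40 higher genes with a median difference of 0.17, where it was above in 59.0% of all ranked genes with a median of 0.05. Without MO4 it was above in 19 of 40 with a median of -0.03, against 52.8% of all ranked genes with a median of 0.01. In the lower list it was above in 19 of 40 with a median of -0.02, and in 23 of 40 with a median of 0.06 without MO4. The direction in the higher list therefore changed without MO4, while the lower list had no clear direction with or without it. MO1 and MO3 were not left out in turn for these counts. ENSRNOG00000036673 differed by 0.73 with a 95% interval of -0.40 to 1.86 (adjusted p = 0.457 by limma), and ENSRNOG00000026124 by 0.59 with an interval of -0.09 to 1.28 (adjusted p = 0.360 by limma). These intervals include both no change and a change of more than 1.5-fold.

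**Figure D5:**
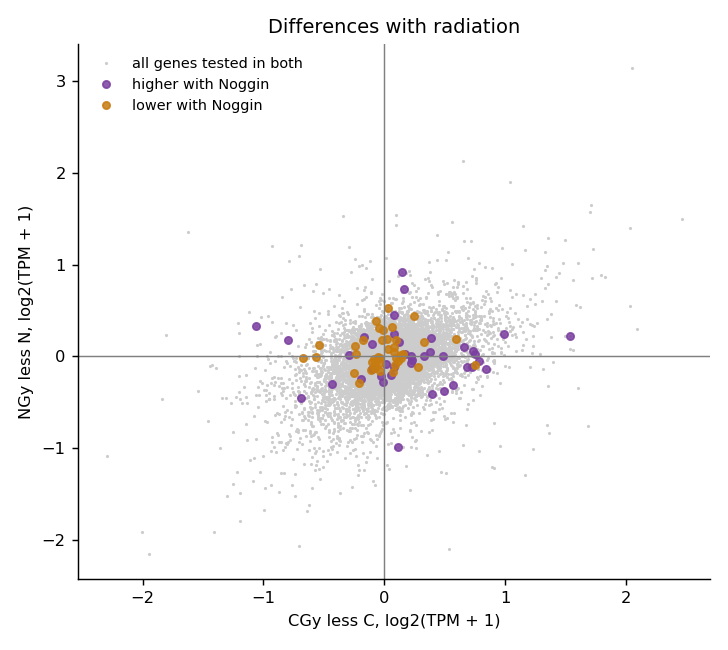
Difference between NGy and N against the difference between CGy and C, both on the log2(TPM + 1) scale, for the genes tested in both comparisons and the 80 members. Most members lie among the other genes, and the 2 members called in NGy against N are those at 0.73 and 0.92 on the vertical axis.

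The difference between these 2 radiation effects was tested as an interaction of Noggin and radiation, with no fold threshold. By limma 0 of 40 higher and 0 of 40 lower genes passed, where 0.01% of all genes tested (1 of 9958) did. At an unadjusted p below 0.05, 5 higher and 0 lower genes passed, against 16.5% of all genes. After batch correction 13 higher and 2 lower genes passed, where 24.1% of all genes (2392 of 9936) did. The estimate was below 0 in 28 of the 40 higher genes, where it was below 0 in 5932 of the 9958 genes tested. Its median was -0.24 in the higher list and 0.03 in the lower list, against -0.07 over all genes. The estimate is built from group means that the rule used, so its directions and medians are not independent of the rule. It also includes the spread controls, and its directions were not recounted without MO4. For ENSRNOG00000002382 it was 0.24 with a 95% interval of -0.27 to 0.74 (adjusted p = 0.606 by limma).

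Radiation under ascorbic acid also gave no call. In AGy against A, none of the 39 higher and 40 lower genes tested was called by limma, where 0% of all genes tested (0 of 9859) were. At an unadjusted p below 0.05, 3 higher and 5 lower genes passed, against 12.7% of all genes. After batch correction 1 lower gene was called, where 1.04% of all genes (102 of 9850) were. The lower gene of rank 5 had the largest difference of the list, 1.08 (SE 0.16, adjusted p = 0.129 by limma). It was at 107 to 157 TPM in A and 210 to 317 TPM in AGy, groups that did not overlap. Its Noggin samples were at 19.5 to 126 TPM and overlapped those of C and CGy, at 34.8 to 139 TPM.

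With ascorbic acid and no radiation, most members had means on the side of the controls away from Noggin, but no single gene passed. In A against C, 0 of 40 higher and 0 of 40 lower genes were called by limma, where 0.0203% of all genes tested (2 of 9850) were. At an unadjusted p below 0.05, 5 higher and 14 lower genes passed, against 12.1% of all genes. After batch correction 2 higher and 8 lower genes were called, where 2.44% of all genes (240 of 9838) were. The A mean was below the C mean in 34 of the 40 higher genes and above it in 35 of the 40 lower genes, while it was above in 56.1% of all ranked genes. The median difference was -0.23 in the higher list and 0.36 in the lower list, against 0.03 over all genes tested. Without MO4 the counts were 35 and 33, with medians of -0.48 and 0.38, and the A mean was above the C mean in 47.7% of all ranked genes. C was the group nearest to Noggin in the rule for 9 higher and 14 lower genes, and A for 3 and 2. The directions of A against C are therefore not independent of the rule, and they were not tested as a set.

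The irradiated groups, which share no sample with A and C, were compared by their means. The AGy mean was below the CGy mean in 33 of the 40 higher genes, with a median difference of -0.44, where it was below in 53.8% of all ranked genes. It was above the CGy mean in 33 of the 40 lower genes, with a median of 0.29, where it was above in 46.2% of all ranked genes. CGy was often the group nearest to Noggin in the rule, so these counts are not independent of it and were not tested. The lower gene of rank 4 was at 22.2 to 50.0 TPM in N and 27.3 to 31.8 TPM in NGy, at 41.1 to 45.1 TPM in CGy and 39.3 to 121 TPM in C, and at 81.6 to 138 TPM in A and 61.3 to 115 TPM in AGy. All A and AGy samples were above all CGy samples there, and the controls overlapped both. CGy was the group nearest to Noggin for this gene, which was picked after its values were seen. The share of all genes with such a separation was not counted. The 4 genes given by identifier did not all follow the pattern, since ENSRNOG00000002382 differed between A and C by 0.02 (95% interval -0.35 to 0.39, adjusted p = 0.974 by limma) and ENSRNOG00000026124 by -0.29 (adjusted p = 0.604 by limma). All 8 A and AGy samples and 2 of the 4 C samples have lower numbers in their titles than the 12 N, CGy and NGy samples. Against C the match between ascorbic acid and the numbering is therefore partial. Where A and AGy are set against N, CGy or NGy, ascorbic acid and the numbering cannot be told apart. The same holds for Noggin where N and NGy are set against A, AGy and those 2 C samples.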

How the data were processed

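Bulk RNA-seq of 24 neurosphere samples was used. Per the labels, the submitters' tools were STAR 2.6.1 and kallisto. The authors deposited TPM for all samples, with no read counts, so depth is unknown here; the listed genes summed to between 615330 and 655289 TPM in 23 samples. The authors also deposited a batch-corrected table without MO2, whose values are on another scale (0.5 times the corrected TPM + 1); it was doubled, less 1, with values below 0 set to 0, and served as an alternative. That correction used the groups, which p-values from it do not take into account. Columns carry identifiers (MO1 and so on) that the study's text and plots place in groups but that no label pairs with a sample. The sample titles also hold numbers, but these order the groups differently. All 8 A and AGy samples come before the N, CGy and NGy samples in the titles, whereas the AGy identifiers come last among the columns. There were 0 columns of per-sample values left unused.

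Members and lists were chosen with earlier results of these data known. The rule used the uncorrected TPM without MO2 and a pseudocount of 1. It also leaves out genes covered by name elsewhere; 0 identifiers were matched to a symbol, so none was left out. Tests used limma 3.58.1 in R 4.3.3 with the compared groups only in each fit, and the test function was checked on simulated data with 200 changed genes. Genes given by identifier are the first 2 of each list in margin; others are given by rank where called, or for their level or difference, chosen after their values were seen. Figures were drawn with matplotlib 3.10.9.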

Additional observations from a re-analysis of the deposited data

Results flagged for a closer look

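Of 30 checks of a group of 4 samples for a value far from the rest, covering the 4 genes given by identifier and the 2 list levels, 1 was positive. The level of the lower genes in the NGy sample MO17 was -0.43, against -0.53, -0.52 and -0.53 in the other NGy samples. Chance gives such a value in about 1 of 20 groups, and the cause was not tested.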

How the results depend on the processing

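The lists depended on the rule's settings. With MO2 included, 34 of 40 higher and 19 of 40 lower genes were kept, and with a minimum of 1 TPM 25 and 31. Under a pseudocount of 0.1, a minimum of 10 TPM or a common total, 32 to 35 higher and 28 to 36 lower genes were kept. Leaving out 1 sample at a time kept 31 to 40 higher and 27 to 39 lower genes, with the fewest of both without MO4. With MO2 included, 24 of the 40 lower genes had a margin above 0. The margin of ENSRNOG00000016640 was 1.26 with a pseudocount of 0.1, 0.05 with MO2 included and 0.06 to 0.80 when 1 sample was left out. For NGy against N, the count of members called was 0 with no filter on low values, where all genes gave 154 calls against 284 in the main fit. The count was 0 to 2 when 1 sample was left out. It was 0 without MO6, MO8, MO19 or MO20, where all genes gave 176, 161, 149 and 150 calls. It was 1 without MO5 (a lower gene in place of both), MO7 or MO18, where all genes gave 236, 222 and 328 calls. With the first or last 2 identifiers of each group as a term the count of members was 2, where all genes gave 424 calls against 284. In CGy against C and the interaction that count was 0. These fits were added after seeing the data, as were the counts of directions without MO4 and those of AGy against CGy. In the batch-corrected table, 9 members were called in CGy against C, 1 in AGy against A, 10 in A against C and 15 in the interaction, where all genes gave 657, 102, 240 and 2392 calls. With all 6 groups in one fit, A against C called 3 members, where all genes gave 69 calls against 2 in the main fit. Leaving out 1 sample gave 0 to 0 members in these 4 comparisons. The median of CGy less C changed sign in both lists without MO4, from 0.17 to -0.03 in the higher and from -0.02 to 0.06 in the lower list. Alternatives for the BMP pathway genes were not run, since no gene could be named. No paired analysis was possible because the columns carry no replicate number from the labels, and the term for identifiers above is not a labelled pairing. Depth was unknown, and low genes are the least certain.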

Other observations

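Within N, CGy and NGy, the first 2 and the last 2 identifiers did not overlap, in the same direction in all 3 groups, for 12.9% of all ranked genes (1017 of 7860), a split noticed in the values. It held for 7 of the 40 higher genes and 5 of the 40 lower genes. The lower gene of rank 5 was at 139 and 133 TPM in the CGy samples MO13 and MO14B and at 34.8 and 36.1 TPM in MO15 and MO16. In N it was at 54.8 and 82.3 TPM in MO5 and MO6 and at 30.6 and 31.9 TPM in MO7 and MO8. In NGy it was at 87.1 and 126 TPM in MO17 and MO18 and at 19.5 and 25.8 TPM in MO19 and MO20. No label gives a batch for these identifiers, and the split was added as a term in 3 comparisons. In NGy against N the higher genes of ranks 4 and 9 then had adjusted p-values of 0.00672 and 0.0112 by limma, and in CGy against C and the interaction 0 members were called, where 1 and 2 of all genes were.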
